A study of Mus musculus with 2 samples.

Results

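The miR-17-92 cluster and its paralogs are 3 groups of microRNA (miRNA) hairpins, and their mature products were compared between jejunal smooth muscle with and without *Dnmt1*. The products were taken by name: all copies and arms of miR-17, miR-18a, miR-19a, miR-19b, miR-20a and miR-92a from the host transcript *Mir17hg*, of miR-106a, miR-18b, miR-20b and miR-363 from the paralogous cluster on the X chromosome, and of miR-106b, miR-93 and miR-25 from an intron of *Mcm7*. This gave 22 mature entries of the 1147 entries on the deposited table, and no entry named as one of their hairpin precursors. Small RNA was sequenced from the tunica muscularis, the muscle wall peeled off the mucosa, of C57BL/6 mice aged 15 days. *Dnmt1*-WT mice carried the smMHC Cre-eGFP transgene, in which a *Myh11* promoter drives Cre and eGFP in smooth muscle cells, and *Dnmt1*-KO mice carried the same transgene with both *Dnmt1* alleles floxed and deleted in those cells. Each genotype had 1 library, so values differ between 2 libraries and could not be set against the spread between animals. Males and females of either genotype are named in the study's methods, and pooling is not stated for RNA. The strain field, which names the Myh11-cre,-EGFP line together with Dnmt1lox/lox, and a description field with the mutant genotype are the same for both samples, so the groups rest on the titles and the genotype field. The tissue is bulk muscle wall, in which cells without Cre keep *Dnmt1*.

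*Mir17hg* is a long noncoding RNA that is cut into a series of miRNAs, and it is known as a target of the growth regulators MYC and E2F. *Mcm7* encodes a subunit of the helicase that opens DNA for replication, and its intronic miRNAs are made with the host transcript. A miRNA recognises messenger RNAs mainly through its seed, bases 2 to 8 counted from the 5′ end, so products of different clusters with 1 seed share most of their targets. The miR-17 seed family is known to repress the cell cycle inhibitor *Cdkn1a* and the pro-apoptotic gene *Bcl2l11*, and the miR-92 family to repress *Bcl2l11*. Each transcript therefore yields members of more than 1 seed family.

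The guide arms fell into 4 seed families, and their sequences are shown because the results below are ordered by these families. All sequences are RefSeq entries on GRCm38.p6, written 5′ to 3′ with the seed in capitals. Of the 22 entries, 21 matched RefSeq by name, and the exception was miR-363-5p. The miR-17 family comes from all 3 clusters:
miR-17-5p: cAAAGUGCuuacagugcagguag
miR-20a-5p: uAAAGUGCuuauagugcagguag
miR-93-5p: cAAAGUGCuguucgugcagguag
miR-106b-5p: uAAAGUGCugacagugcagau
miR-106a-5p: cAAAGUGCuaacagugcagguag
miR-20b-5p: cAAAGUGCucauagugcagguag

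The miR-18 and miR-19 families come from *Mir17hg* and the X cluster, and each is shown for the products on the table:
miR-18a-5p: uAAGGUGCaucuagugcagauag
miR-19a-3p: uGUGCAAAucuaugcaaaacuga
miR-19b-3p: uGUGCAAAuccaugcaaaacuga

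The miR-92 family again comes from all 3 clusters:
miR-92a-3p: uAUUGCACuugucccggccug
miR-25-3p: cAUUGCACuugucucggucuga
miR-363-3p: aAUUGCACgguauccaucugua

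Several of these products are near copies. Counted from 1 at the 5′ end, miR-106a-5p and miR-17-5p differed at 1 base (A10U), and miR-19a-3p and miR-19b-3p at 1 base (U11C). miR-17-5p and miR-20a-5p differed at 2 bases, whereas miR-93-5p differed from either at 4. miR-25-3p and miR-92a-3p differed at 3 of the 21 bases they share in an ungapped comparison. The mature sequences of miR-92a-3p and miR-19b-3p are each made by a hairpin of *Mir17hg* and by a hairpin of the X cluster, so their reads cannot be assigned to either. How reads that match several miRNAs were counted is not given in the sources used here. The WT value of miR-106a-5p (1.5) and the KO value of miR-19a-3p (59.3) were not whole numbers of reads.

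Each deposited value is a scaled read count, in which 1 unit is close to 1 read. The *Dnmt1*-WT library totalled 5741906 and the *Dnmt1*-KO library 4754677. The 22 entries together summed to 42679 in WT and 35994 in KO, a KO/WT ratio of 0.843 (95% interval 0.832 to 0.855). Intervals here are exact (Clopper-Pearson) and cover counting error only, without the spread between animals, because each genotype had 1 library. Copies made by PCR were not marked and could not be told from separate molecules. The intervals take reads as independent, so they may be too narrow even for counting error. As shares of the libraries, the entries held 0.743% of WT reads (Wilson interval 0.736 to 0.750%) and 0.757% of KO reads (0.749 to 0.765%). The whole group thus differed little between the libraries, and its direction depended on whether values or shares were read. Of the 22 entries, 18 had a mean of both libraries of at least 10, 10 had a mean of at least 100, and 21 were above 0 in both. The 21 products with a RefSeq sequence are 21 to 23 bases long, and levels of different products are compared as scaled read counts without a correction for length.

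**Figure D1:**
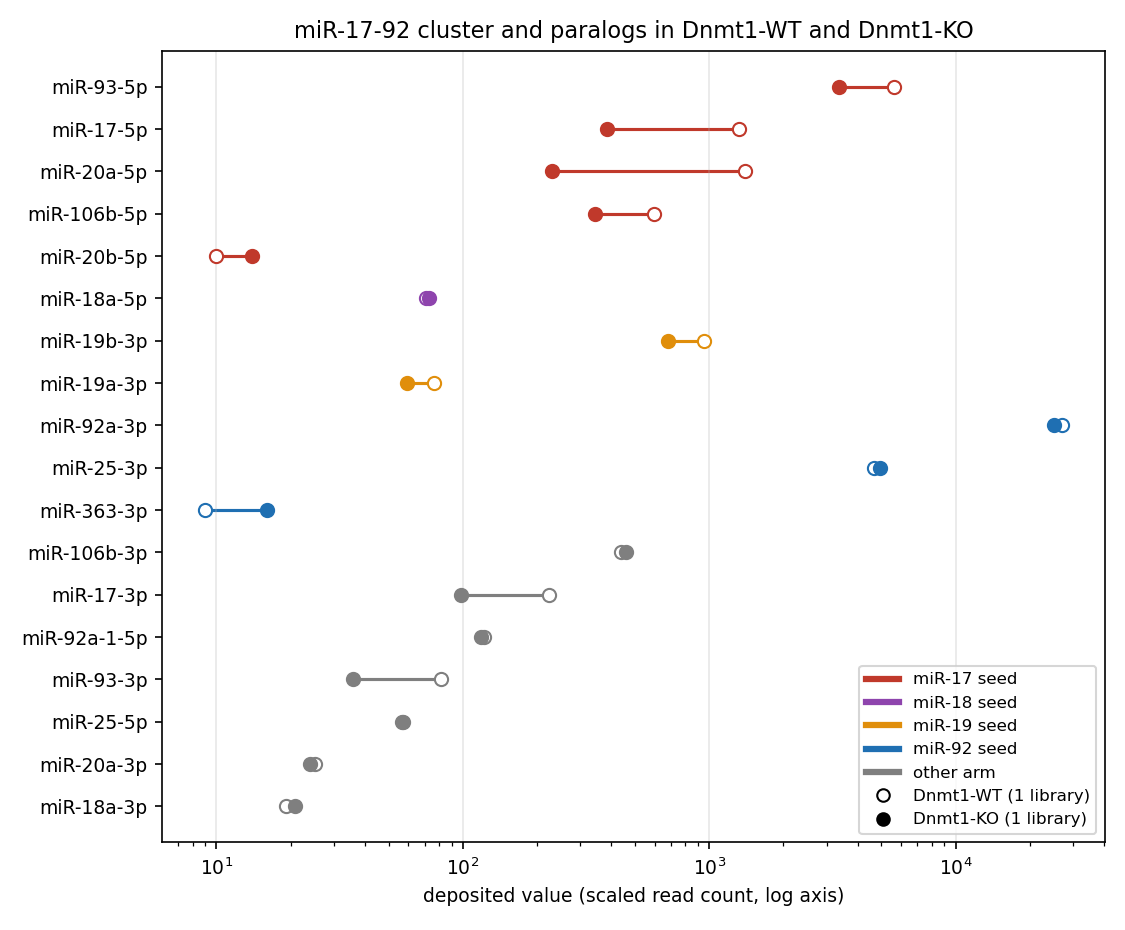
Deposited values (scaled read counts, log axis) of the 18 products with a mean of at least 10 in the *Dnmt1*-WT library (open circles) and the *Dnmt1*-KO library (filled circles), coloured by seed family, with other arms in grey. The 4 abundant miR-17 family products lie lower in KO, from 230.4 to 3369 against 595.7 to 5604 in WT, while miR-92a-3p and miR-25-3p nearly overlap between the libraries.

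The miR-17 family, whose best known targets are inhibitors of the cell cycle and of survival, was lower in *Dnmt1*-KO. Its 6 products had a sum of 8932 in WT and of 4346 in KO, a ratio of 0.487 (0.469 to 0.505). Less of a miRNA per cell and fewer cells that make it cannot be told apart in bulk tissue. The lowest ratio was that of mmu-miR-20a-5p, made by a hairpin in the middle of *Mir17hg*, with values of 1399 in WT and 230.4 in KO. Its ratio was 0.165 (0.143 to 0.189), or a log2 difference of -2.60. mmu-miR-17-5p, the first product of the same transcript, had values of 1322 and 383.9, a ratio of 0.290 (0.259 to 0.326). miR-17-5p and miR-20a-5p were at similar levels in WT, and miR-20a-5p was the lower of the pair in KO.

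The 2 products of this family from the *Mcm7* intron differed less between the libraries. mmu-miR-93-5p, the most abundant product of the family, had values of 5604 in WT and 3369 in KO, a ratio of 0.601 (0.576 to 0.628). mmu-miR-106b-5p had values of 595.7 and 343.0, a ratio of 0.576 (0.503 to 0.659). These ratios lay close to each other: that of miR-106b-5p was 0.958 times that of miR-93-5p, with an interval from 0.830 to 1.10 that includes 1. The KO/WT ratio of miR-17-5p and miR-20a-5p summed was 0.377 times that of this pair summed (0.342 to 0.416). The last 2 members, from the X cluster, rested on few reads. miR-20b-5p had values of 10 in WT and 14 in KO (ratio 1.40, 0.575 to 3.50) and miR-106a-5p had 1.5 and 5.0, and neither difference exceeded counting error.

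The make-up of the miR-17 family shifted with these differences. miR-93-5p held 62.7% of the family's reads in *Dnmt1*-WT (Wilson interval 61.7 to 63.7%) and 77.5% in *Dnmt1*-KO (76.3 to 78.8%). The share of miR-20a-5p went from 15.7% (14.9 to 16.4%) to 5.30% (4.67 to 6.01%). The share of miR-17-5p went from 14.8% (14.1 to 15.6%) to 8.83% (8.03 to 9.71%). miR-106b-5p held 6.67% (6.17 to 7.21%) and 7.89% (7.13 to 8.73%), with intervals that overlap slightly. An overlap of separate intervals does not show that the shares were alike. These shares do not depend on how the libraries are scaled against each other.

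**Figure D2:**
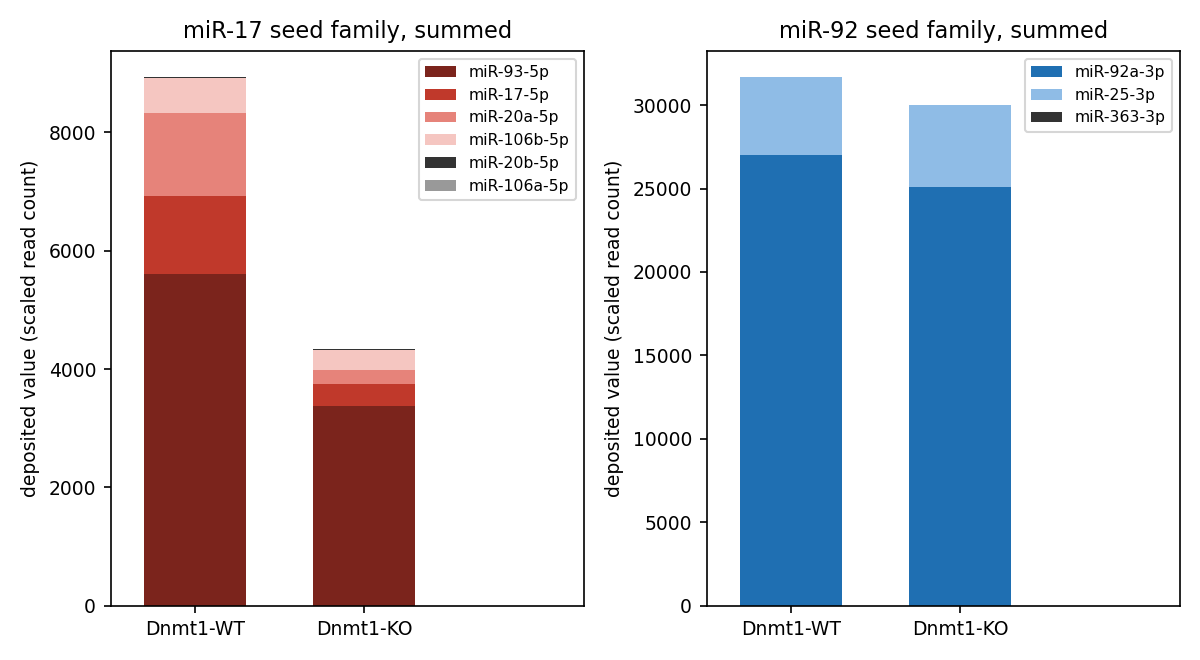
Summed deposited values (scaled read counts) of the miR-17 and miR-92 seed families in each library, with 1 colour per product. The miR-17 family bar is 8932 in *Dnmt1*-WT and 4346 in *Dnmt1*-KO, of which miR-93-5p is the largest piece, whereas the miR-92 family bars are 31677 and 30016.

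The miR-92 family differed little. It was the most abundant of the 4 families, with a sum of 31677 in *Dnmt1*-WT and 30016 in *Dnmt1*-KO and a ratio of 0.948 (0.933 to 0.963). mmu-miR-92a-3p, the last product of *Mir17hg* and a product of the X cluster as well, had values of 26997 and 25082. It ranked 33rd of all entries in KO, and its ratio was 0.929 (0.913 to 0.945). mmu-miR-25-3p, from the *Mcm7* intron, had values of 4671 and 4918, a ratio of 1.05 (1.01 to 1.10). miR-363-3p from the X cluster had values of 9.0 and 16.0, and its interval of 0.736 to 4.54 includes 1. The sign of the miR-92a-3p difference depended on the scaling, as did that of the family's sum, so no direction is read for either.

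The KO/WT ratio of the miR-17 family was 0.514 times that of the miR-92 family (0.493 to 0.534), a comparison within each library that no scaling can move. It was chosen after the values were seen. For every 1 read of the miR-92 family there were 0.282 reads of the miR-17 family in WT and 0.145 in KO. The seeds were also compared by cluster, again after the values were seen. The ratio of miR-17-5p and miR-20a-5p summed was 0.243 times that of miR-92a-3p (0.222 to 0.266), although part of the miR-92a-3p reads can come from the X cluster. The ratio of miR-106b-5p and miR-93-5p summed was 0.569 times that of miR-25-3p (0.537 to 0.602).

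The other pair of families is made by *Mir17hg* and the X cluster alone. The miR-19 family had a sum of 1025 in WT and 740.9 in KO, a ratio of 0.723 (0.657 to 0.795). miR-19b-3p made up most of it, with values of 948.7 and 681.6 and a ratio of 0.718 (0.651 to 0.794). Its near copy miR-19a-3p had values of 76.2 and 59.3, a ratio of 0.778 (0.540 to 1.10), which did not differ from 1 beyond counting error. The miR-18 family was represented by miR-18a-5p, with values of 71.2 and 72.8, a ratio of 1.02 (0.727 to 1.44). The KO/WT ratio of the miR-19 family was 0.763 times that of the miR-92 family (0.692 to 0.840), and that of the miR-17 family was 0.673 times that of the miR-19 family (0.608 to 0.746).

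Along the *Mir17hg* transcript, the products differed in their ratios. Its 6 hairpins lie within 836 bases of chromosome 14 (GRCm38, chr14:115043671-115044506, plus strand), all inside exon 2 of *Mir17hg*. In their order from the 5′ end, the ratios of the guide arms were 0.290 for miR-17-5p, 1.02 for miR-18a-5p, 0.778 for miR-19a-3p, 0.165 for miR-20a-5p, 0.718 for miR-19b-3p and 0.929 for miR-92a-3p. There was no order by position: the lowest ratio stood between those of miR-19a-3p and miR-19b-3p. Of the 15 pairs of these products, 10 had ratios that differed beyond counting error. Counting error is narrow at this depth, and the same count was not made for other transcripts, so it is not read as a trait of this cluster. The arms of 49.3% of all hairpins compared below also differed beyond counting error. That share is for arms of single hairpins and is no background for these pairs. miR-18a-5p against miR-20a-5p gave the widest gap, a factor of 6.21 (4.28 to 8.99) between their ratios. The 5 pairs that did not differ beyond counting error each held miR-18a-5p or miR-19a-3p, whose counts were low.

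Summed over the 9 entries that only *Mir17hg* makes, the values were 3261 in *Dnmt1*-WT and 1011 in *Dnmt1*-KO, a ratio of 0.310 (0.288 to 0.333). miR-17-5p and miR-20a-5p held 40.5% (38.9 to 42.2%) and 42.9% (41.2 to 44.6%) of these reads in WT, and 38.0% (35.1 to 41.0%) and 22.8% (20.3 to 25.5%) in KO. These 2 products thus made up most of the sum in both libraries. With miR-92a-3p and miR-19b-3p counted in full as products of *Mir17hg*, the ratio of the sum was 0.858. The copy of miR-92a in *Mir17hg* also has a distinct passenger arm, miR-92a-1-5p, with values of 122.4 and 118.7 and a ratio of 0.970 (0.747 to 1.26). The matching arms of the X copies, miR-92a-2-5p and miR-19b-2-5p, had no entry on the table, and miR-19b-1-5p was at 2.0 in both libraries.

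In the *Mcm7* cluster the guide arms with the miR-17 seed were lower in *Dnmt1*-KO and the guide arm with the miR-92 seed was not. Its 3 hairpins lie within 498 bases of chromosome 5 (GRCm38, chr5:138165321-138165818, minus strand), in intron 13 or intron 8 of *Mcm7* depending on the transcript, in the order mir-106b, mir-93 and mir-25. In a further annotated transcript, mir-93 and mir-25 lie inside exon 1. The 6 products had a sum of 11450 in WT and 9183 in KO, a ratio of 0.802 (0.780 to 0.824). The KO/WT ratio of miR-93-5p was 0.571 times that of miR-25-3p (0.538 to 0.606), and that of miR-106b-5p was 0.547 times it (0.475 to 0.630). In WT there were 1.20 reads of miR-93-5p for every read of miR-25-3p, and in KO 0.685, so the order of the most abundant products of the intron changed.

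The products of the X cluster were at a few reads in both libraries. Its 6 hairpins lie within 875 bases (GRCm38, chrX:52741693-52742567, minus strand), with the end of mir-106a overlapping an exon of the noncoding transcript *Kis2* and the others in no annotated host. The 5 entries that only this cluster makes had a sum of 22.5 in WT and 37 in KO. The ratio of 1.64 had an interval of 0.961 to 2.98 that includes 1. With equal library totals the ratio was 1.99 (1.16 to 3.59), and with equal totals without miR-143-3p 1.85 (1.08 to 3.35), both of which exclude 1. miR-363-5p was listed at 2.0 and 1.0, and miR-18b-3p at 0 in WT and 1.0 in KO. A value of 0 allows up to 3 reads, or 5.24e-05% of the WT library. miR-106a-3p, miR-18b-5p and miR-20b-3p had no entry on the table.

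**Figure D3:**
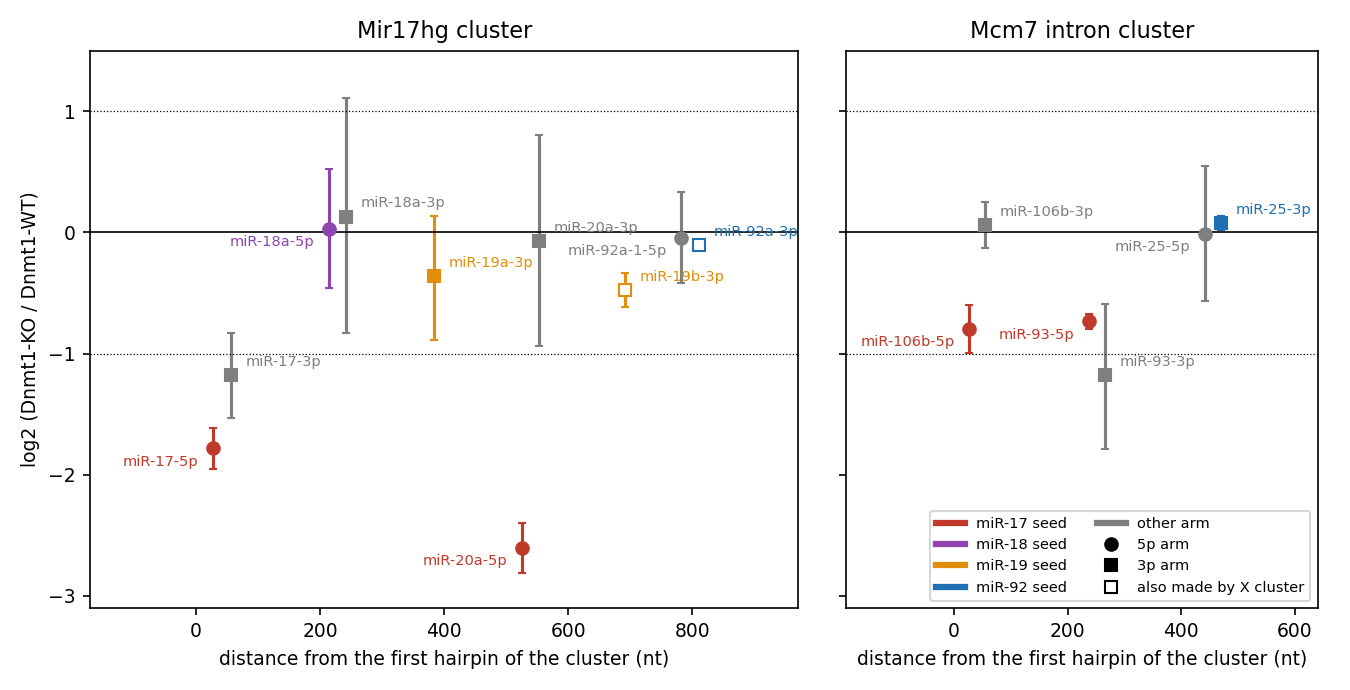
The log2 KO/WT ratio of each *Mir17hg* and *Mcm7* cluster product with a mean of at least 10 against the distance (nt) of its hairpin's centre from the start of the first hairpin of its cluster, the arms drawn slightly apart, with 95% counting intervals as bars. Circles are 5p arms, squares are 3p arms, open symbols are products that the X cluster also makes, and dotted lines mark 2-fold. In both clusters the miR-17 seed products (red) lie lowest among the guide arms, with miR-20a-5p at -2.60, and miR-92a-3p and miR-25-3p (blue) lie near 0. Products that only the X cluster makes are not drawn.

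The arms of a hairpin come from 1 precursor, and their ratios were compared as a measure that needs no scaling. The hairpin mir-20a is shown with its mature arms in capitals because its arms diverged most, and mir-106b for the same pattern at higher counts of the 3p arm (RefSeq, GRCm38.p6, 5′ to 3′):
mir-20a: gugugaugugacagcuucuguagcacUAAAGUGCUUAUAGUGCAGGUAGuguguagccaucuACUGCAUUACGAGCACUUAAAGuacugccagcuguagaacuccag
mir-106b: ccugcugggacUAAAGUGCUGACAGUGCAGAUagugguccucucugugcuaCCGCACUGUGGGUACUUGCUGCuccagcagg

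miR-20a-3p, the minor arm of mir-20a, had values of 25.1 in *Dnmt1*-WT and 23.9 in *Dnmt1*-KO, a ratio of 0.952 (0.522 to 1.74). There were 55.8 reads of miR-20a-5p for every read of miR-20a-3p in WT and 9.63 in KO, so the 5p arm was the more abundant in both libraries and its KO/WT ratio was 0.172 times that of the 3p arm (0.0929 to 0.322). mmu-miR-106b-3p had values of 440.3 and 459.7, a ratio of 1.04 (0.914 to 1.19). Its 5p partner exceeded it in WT, with 1.35 reads for every read of the 3p arm, and stood below it in KO, with 0.746, and its KO/WT ratio was 0.551 times that of the 3p arm (0.456 to 0.667). On the deposited scale neither 3p arm differed between the libraries beyond counting error. For miR-106b-3p this depended on the scaling, since its ratio was 1.26 (1.10 to 1.44) with equal library totals and 1.18 (1.03 to 1.34) with equal totals without miR-143-3p.

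In the 2 other abundant hairpins of the family both arms were lower. miR-17-3p had values of 223.6 in *Dnmt1*-WT and 98.7 in *Dnmt1*-KO, a ratio of 0.441 (0.345 to 0.562), and the KO/WT ratio of the 5p arm was 0.658 times this (0.503 to 0.865). miR-93-3p had values of 81.2 and 35.9, a ratio of 0.442 (0.290 to 0.662), and its arms did not differ beyond counting error (the KO/WT ratio of the 5p arm was 1.36 times that of the 3p arm, 0.906 to 2.08). The arms of mir-18a and of mir-25 did not differ from each other beyond counting error, with miR-18a-3p at 19.1 and 20.9 and miR-25-5p at 57.2 and 56.8. The hairpin mir-92a-1, whose 3p arm is also made by the X cluster, was not compared in this way. Of the 6 other hairpins whose arms each reached a mean of 10, 3 had arms that differed beyond counting error. Across the 148 hairpins of the table that were compared, an analysis added after the values were seen, 73 did. This was 49.3%, so the count was near that of the table. Over the 148, the log2 ratios of the arms differed by a median size of 0.54 (SD 0.87). At a size of 2.53, mir-20a ranked 3rd of the 148, mir-106b ranked 45th at 0.86, and mir-17 ranked 67th at 0.60. These ranks take point values without their counting error, and that of mir-20a rests on 25 reads of its 3p arm in WT and 24 in KO.

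Set against the whole table, 4 of the 18 products with a mean of at least 10 were at least 2-fold lower in *Dnmt1*-KO: miR-20a-5p, miR-17-5p, miR-17-3p and miR-93-3p. Across all 543 entries with such a mean, 54 were as low, or 9.94%. No product was at least 2-fold higher, whereas 62 of all entries were, or 11.4%. At a mean of at least 100, 3 of 10 products were at least 2-fold lower, beside 8.86% of all 316 entries, and none was at least 2-fold higher, beside 6.33%. With equal library totals the split turned over the table, with 5.34% of the 543 entries at least 2-fold lower and 19.5% at least 2-fold higher, and 2 and 1 of the 18 products. Medians were taken over entries above 0 in both libraries. The median log2 ratio was -0.09 over the 18 products and 0.02 over 531 of the 543 entries. At the higher minimum it was -0.61 over the 10 products and -0.03 over 313 of the 316 entries. Ranked from the lowest ratio among 313 entries (mean 100 or more, above 0 in both libraries), miR-20a-5p was 2nd, miR-17-5p 7th and miR-17-3p 16th. The miR-17 family products of *Mcm7* stood further up, miR-106b-5p at 43rd and miR-93-5p at 54th, and miR-25-3p stood at 176th. The log2 ratios of all 313 entries had an SD of 0.76.

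**Figure D4:**
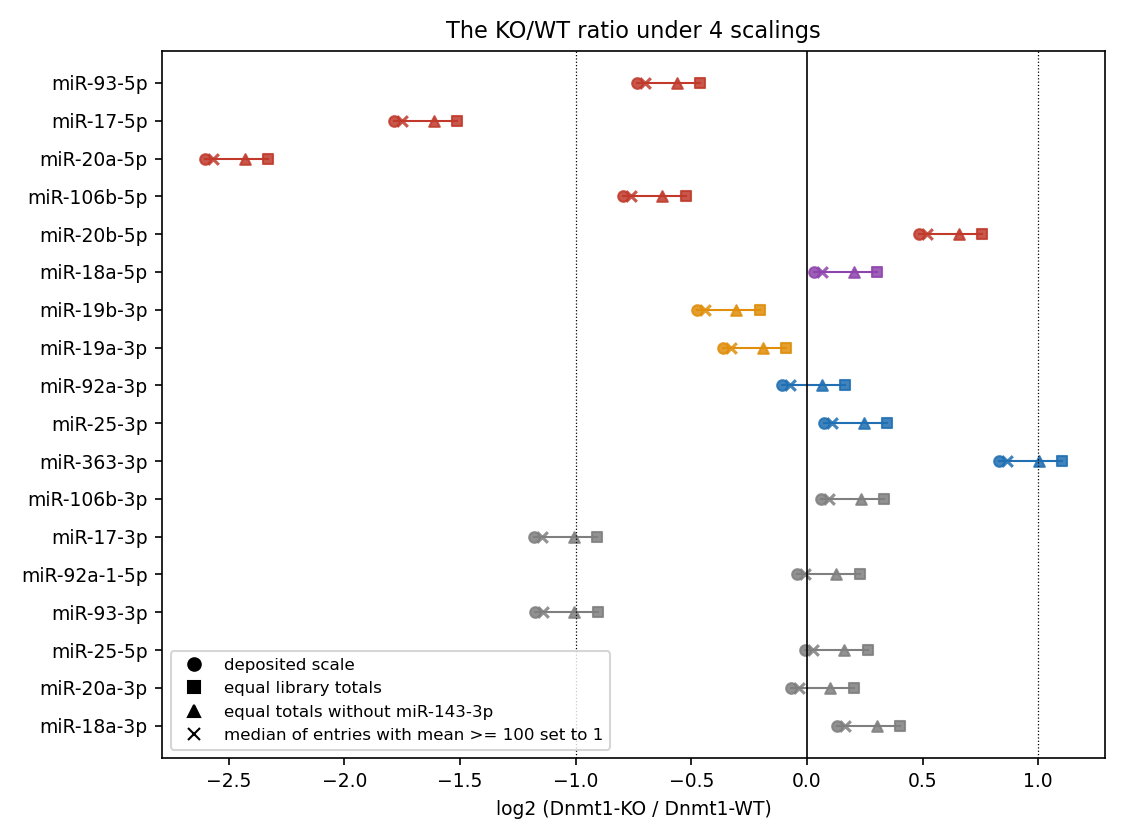
The log2 KO/WT ratio of the 18 products with a mean of at least 10 under 4 ways of scaling the libraries, with 1 symbol per scaling and dotted lines at 2-fold. miR-20a-5p, miR-17-5p, miR-93-5p and miR-106b-5p lie below 0 under each scaling, while miR-92a-3p crosses 0.

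The scale of the libraries bears on each of these ratios. Equal library totals raised every log2 ratio by 0.27, equal totals without miR-143-3p, the most abundant entry, by 0.17, and a median ratio of 1 over entries whose mean reached 100 by 0.03. Under the deposited scale and these 3 others, 8 of the 18 products were lower each time: the 4 abundant miR-17 family products, miR-17-3p, miR-93-3p, miR-19a-3p and miR-19b-3p. Of all 543 entries, 185 were lower each time, or 34.1%. Another 6 products were higher each time, namely miR-25-3p, miR-106b-3p, both arms of mir-18a, miR-20b-5p and miR-363-3p, beside 280 of the 543 entries, or 51.6%. Of these 6, only miR-25-3p had a counting interval that excluded 1 under each scaling. Among the 8 lower products, the interval of miR-19a-3p included 1 under each scaling. The remaining 4 products, miR-92a-3p, miR-92a-1-5p, miR-20a-3p and miR-25-5p, changed sign. With equal totals, the ratios of miR-20a-5p and miR-17-5p were 0.199 and 0.351, those of miR-93-5p and miR-106b-5p were 0.726 and 0.695, and that of miR-92a-3p was 1.12.

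Outside these clusters, the table held 2 more miRNAs with a seed of the 4 families, both with the miR-92 seed. miR-92b-3p had values of 373.4 in *Dnmt1*-WT and 399.2 in *Dnmt1*-KO (ratio 1.07, 0.926 to 1.23), and miR-32-5p had 19.1 and 20.9 (1.09, 0.562 to 2.16). On the deposited scale neither differed beyond counting error, whereas miR-92b-3p was at 1.29 (1.12 to 1.49) with equal library totals and at 1.20 (1.04 to 1.39) with equal totals without miR-143-3p. RefSeq also lists miR-6383 with the miR-17 seed and miR-367-3p with the miR-92 seed, neither of which had an entry on the table.

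The libraries also differed in miRNAs of several cell types, and the part of cell make-up in the differences above was not tested. Smooth muscle miRNAs (arms of miR-143, miR-145a, miR-133a and miR-1a) were lower in *Dnmt1*-KO in 7 of 7 entries with a mean of at least 10, and the sum over all 8 entries had a ratio of 0.652. The sums below also take every entry of a list. Leukocyte miRNAs (miR-142a, miR-223, miR-150 and miR-155) were higher in 6 of 6, with sums of 1702 and 4936. Red cell miRNAs (miR-451a, miR-144 and miR-486a) were higher in 4 of 4, with sums of 12745 and 47217. Nearly all of both sums was miR-486a-5p, at 12592 in WT and 46756 in KO, while miR-451a was at 141.4 and 420.8. The study names miR-486a among miRNAs of cellular identity and proliferation, so these sums are not read as an amount of red cells. Epithelial miRNAs (the miR-200 family, miR-192, miR-194 and miR-215) were higher in 9 of 13 and lower in 4, with sums of 14645 and 18346, and were higher in 13 of 13 with equal library totals. The other 3 lists kept their counts under all 4 scalings. Of all 543 entries with such a mean, 47.9% were lower and 51.6% were higher on the deposited scale. With equal library totals, 185 of the 543 were lower and 358 were higher. No marker on these lists was at 0 in either library. miR-143-3p, a smooth muscle miRNA, was the most abundant entry of the table. A small RNA library does not measure *Dnmt1* itself, so the genotypes were not checked here. By flow cytometry of this tissue at the same age, the study reported more immune cells and fewer eGFP-positive smooth muscle cells in *Dnmt1*-KO. The leukocyte and smooth muscle miRNAs above had these directions under the labels used. The lists were chosen with earlier results of these data known, and the study had reported lower miR-143, miR-145 and miR-133 from the same libraries. These directions are therefore no check of the labels.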

How the data were processed

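Small RNA libraries (TruSeq Small RNA kit) were made from the muscle wall of the jejunum, with 1 library for *Dnmt1*-WT and 1 for *Dnmt1*-KO, and grouped by the genotype field of the labels. A commercial provider sequenced them for the authors, GRCm38 was the reference, and the submitters' processing notes name Bowtie and mm10. The miRNA database release, the handling of reads that match several miRNAs and the scaling are not given in the sources used here.

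The deposited values, in a unit other than raw counts, are read counts scaled by a single factor in each library. Of the values from 20 to 300, 87.8% of 229 in WT and 90.3% of 248 in KO were whole multiples (within 0.051) of a step of 1.00287 and 0.99721. Dividing by the steps and rounding gave 5725470 and 4767982 implied reads, which the intervals use. The column with the authors' fold change was not used.

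A ratio is the KO value over the WT value with no pseudocount. Its 95% interval comes from the exact binomial interval for the part of a product's implied reads that is from KO. Ratios of 2 ratios carry exact conditional odds ratio intervals (scipy 1.17.1), and shares carry Wilson intervals. No p-value was computed, and no test fits 1 library per genotype. Interval and step code was tested on simulated data. Cluster sums took products made by 1 cluster only. Hosts came from GENCODE release 21 of the mouse and sequences from RefSeq (GRCm38.p6). Every product with a mean of at least 10 is named. The products, lists and rules were chosen with earlier results of these data known. Alternatives covered 3 scalings, pseudocounts of 1 and 10, the minimum mean, products of 2 clusters, the most abundant product and both arms.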

Additional observations from a re-analysis of the deposited data

How the results depend on the processing

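No paired analysis was possible because each genotype had 1 library and the result comes from no test. The comparisons of summed families within a library, the ranking and count of arms, the intervals, marker counts and shares of all entries under other scalings and the look at GC content were added after seeing the data. With equal library totals, the products at least 2-fold lower numbered 2 in place of 4, and those at least 2-fold higher 1 in place of 0. Equal totals without miR-143-3p also gave 1 higher, beside 15.5% of the 543 entries. With no minimum mean 2 of the 22 products were higher, beside 26.7% of all 1147 entries, and 5 were lower, or 22.7%, a share near the 23.1% of all entries. With equal totals the ratios of sums became 0.374 for *Mir17hg*, 0.969 for *Mcm7*, 0.588 for the miR-17 family, 0.873 for the miR-19 family and 1.14 for the miR-92 family. Without miR-143-3p in the totals they became 0.349, 0.903, 0.548, 0.814 and 1.07. The median scaling gave 0.970 for the miR-92 family. Without the most abundant product, the sums had ratios of 0.629 for *Mcm7*, 0.293 for the miR-17 family and 1.05 for the miR-92 family. Counting miR-92a-3p and miR-19b-3p in *Mir17hg* gave 0.858, and summing both arms gave 0.512 for the miR-17 family. The cause of these shifts lies in the factor or the products taken. For the X cluster, miR-106b-3p and miR-92b-3p, the counting interval included 1 on the deposited and median scales and excluded it with either kind of equal totals. Pseudocounts and scalings reversed no product that was at least 2-fold lower among the 18. For the 4 products under a mean of 10 every counting interval included 1.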

Other observations

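GC content was set beside these ratios over the table, and its part in the difference between the families was not tested. Across 270 entries with a mean of at least 100 and a RefSeq sequence, the Pearson r of the log2 KO/WT ratio with GC content was 0.010 across miRNAs, which share both libraries and are not independent replicates. Other entries with the GC range of the miR-17 family (39.1 to 52.2%) had a median log2 ratio of -0.04 over 128 entries. Those with the GC range of the miR-92 family (40.9 to 57.1%) had a median of -0.01 over 159. The ranges overlap, so these medians share entries and cannot tell the families apart by GC content.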
